A study of Mus musculus with 10 samples.

Results

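XEN-like cells of day 20 (d20) were compared with cells from day 12 colonies (d12c) in the chemical reprogramming of mouse fibroblasts. The members were chosen by cell name: the name prefix d20, or the prefix d12c with a running number from 49 to 96, and at least 4000 detected genes. This took 38 of 72 d20 cells and 30 of 48 d12c cells of these numbers, together 68 of the 670 cells of the series that pass the same filter, out of 808 cells. Mouse embryonic fibroblasts (MEFs) were from E13.5 embryos of ICR mice, and the labels give C6FAE in the field for the strain. C6FAE is a cocktail of CHIR99021 (an inhibitor of GSK3), a TGF-beta receptor inhibitor abbreviated 6, Forskolin (an activator of adenylyl cyclase), AM580 (an agonist of retinoic acid receptor alpha) and EPZ004777 (an inhibitor of the methyltransferase Dot1l). Both groups come from this treatment, for 20 days and for 12 days, in a medium with serum and basic fibroblast growth factor. The labels give a change of medium every 4 days for 12 days and the study's methods a longest course of 20 days. The study's text gives C6FAE for the single-cell course, while its methods list valproic acid as well in the reprogramming medium. Single cells were picked by hand after digestion. The d12c cells came from picked colonies and the names of the d20 cells carry no colony mark, so the day and the picking cannot be told apart.

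Extraembryonic endoderm (XEN) cells are the cultured counterpart of primitive endoderm, the layer of the blastocyst that becomes the yolk sac. Primitive endoderm gives visceral endoderm, an absorbing and secreting epithelium, and parietal endoderm, migratory cells that lay down a thick basement membrane of laminin and type IV collagen. Its identity rests on factors of the Gata, Sox and Fox families, and XEN cells grow in culture as loosely attached, dividing cells. The comparison describes how cells of the later day differ from colony cells of the earlier day.

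The values are counts of unique molecular identifiers (UMIs, which count each RNA molecule once), given as the share of the UMIs of the cell in parts per 1000000 (CPM), without spike-in RNAs and not scaled to gene length. The d20 cells held 27859 to 570496 UMIs each, with a median of 195546, and a median of 5129.5 detected genes. The d12c cells held 37337 to 833965 UMIs, with a median of 276252, and a median of 5452 detected genes. The spike-in RNAs made up a median of 19.3% and 19.4% of the counts. Names do not show which of the 10 sequenced samples a cell belongs to, so each group is 1 unreplicated sample and the groups were not tested against each other. Intervals at 95%, exact Poisson for summed UMIs and exact Clopper-Pearson for shares of cells, cover counting error only. For a count of 0 the limit given is that of 3 counts instead. Differences are the mean of log2(CPM + 1) over the d20 cells minus that over the d12c cells. A gene past the floor had a mean of at least 1 in either group, and a gene called higher or lower had a difference of over 1 in size. As a view of the spread within a group, cells were also taken in blocks of 24 running numbers, 3 blocks at d20 and 2 at d12c, whose meaning is not stated.

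Markers of the XEN state were present in both groups. The summed level of 18 XEN markers had a median of 4624 CPM in d20 cells (767 to 10217) and of 3015 CPM in d12c cells (619 to 9025). This sum alone does not separate XEN cells from fibroblasts, since it was 2189 CPM at day 0 (d0), 4296 CPM in the day 12 cells not picked from colonies (d12) and 3478 CPM in the d12c cells numbered 1 to 48, the last 2 above the d12c cells compared here. At d0 *Sparc*, a matrix glycoprotein that fibroblasts also make, had a mean of 1898 CPM. The summed level of 18 fibroblast markers stood further apart: its median was 58.3 CPM at d20 and 45.8 CPM at d12c, against 8429 CPM at d0, 11980.4 CPM at d12 and 7320.1 CPM in the d12c cells numbered 1 to 48. In 1 cell of each group the fibroblast sum was above the XEN sum. The highest fibroblast sums were 1141 CPM at d20 and 2895 CPM at d12c.

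Fibroblast markers took no single direction between the groups. Of the 18 fibroblast markers, 5 had no UMI in any d20 cell and 2 had none in any d12c cell, and 5 were past the floor. Among the latter 2 were higher and 1 lower by over 1, beside 14.9% and 10.3% of all genes. Their median difference was -0.14, and it ran from -2.96 to 0.93 over the alternatives run. *Dcn*, which encodes the collagen-binding proteoglycan decorin, was found in 0 of 38 d20 cells, which allows a share with a UMI at these depths of up to 7.89%. It was found in 19 of 30 d12c cells, with a median of 2.83 CPM and a highest value of 1766 CPM, and its difference was -2.09. The mean of *Dcn* was 2827 CPM at d12. *Thy1*, a surface glycoprotein of fibroblasts, was higher at d20 by 1.04, but by 0.73 with size factors of DESeq2, and its difference was -0.45 against all kept d12c cells, numbers 1 to 96. *Fbn1*, the microfibril protein fibrillin, was higher by 1.26 (0.95 with size factors of DESeq2), with a UMI in 16 of 38 and 4 of 30 cells. The fibroblast factor *Twist1* had a UMI in 5 of 38 and 7 of 30 cells, and its difference was -0.80. *Col1a2*, a chain of type I collagen and a marker past the floor, had a difference of -0.14. The other fibroblast factors fixed for naming were under the floor: *Prrx1* had a UMI in 4 of 38 and 7 of 30 cells, *Twist2* in 5 and 8, and *Osr1* in 0 and 2. Without the cell of each group in which the fibroblast sum was the higher, the counts of genes given next were 1230 and 904. The part of carried-over fibroblast RNA in the other differences was not tested.

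Of 8522 genes past the floor, 1271 were higher by over 1 at d20, which is 14.9%, and 879 were lower by over 1, which is 10.3%. Counts of called genes in the lists below are to be read beside these shares. Differences of over 2 were found for 135 genes upward and 141 downward. The median difference over all genes was 0.13, and it moved by -0.11 with TMM factors and by -0.14 with size factors of DESeq2. The balance of the calls rests on such choices: 59.1% of the called genes were higher at d20, against 47.9% with size factors of DESeq2 and 35.7% with a minimum of 2000 detected genes per cell. In 1732 genes every d20 block lay above every d12c block, which is 20.3%, and in 1377 genes every d20 block lay below, which is 16.2%. Of the called genes, 987 of those higher and 744 of those lower were also separated in this way. The blocks are parts of the same cells, so this separation is not independent of the call. Among lists with at least 5 genes past the floor, those that lay highest held cell division and basement membrane genes, and those that lay lowest held cAMP response, early response, TGF-beta and cell junction genes. The cells with at least 6000 detected genes (12 d20 and 11 d12c cells) were not matched in make-up. They hold the d20 cell with the highest fibroblast sum (1141 CPM) and a d12c cell at 1411 CPM. The d12c cell with the highest sum (2895 CPM) is not among them. In cells with at least 6000 genes the medians of the basement membrane and TGF-beta lists were near 0, at 0.099 and 0.059. Of 123 genes named here with a difference past 1, 82 stayed past 1 in the same direction in these cells, where 36 of 127 named genes within 1 also passed it, and 63 of the former stayed past 1 with a pseudocount of 10 CPM. A range in brackets after the median of a list is that of the median over the alternatives run.

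**Figure D1:**
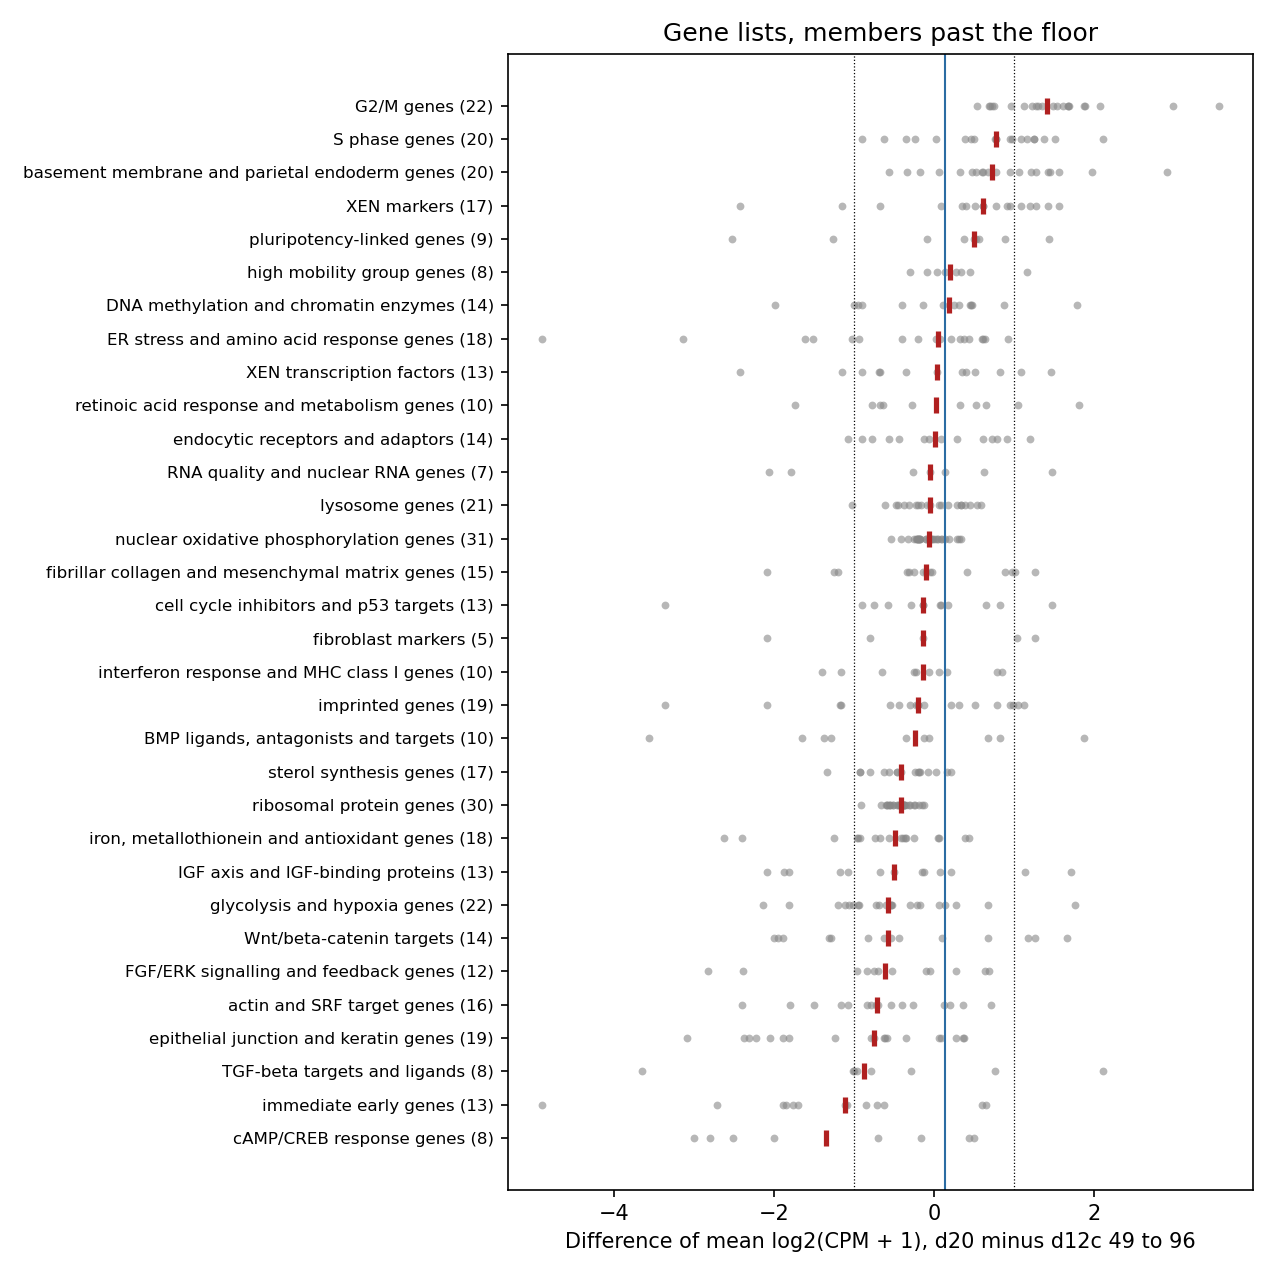
Each grey point is the difference in mean log2(CPM + 1), d20 minus d12c numbered 49 to 96, of a listed gene past the floor, for lists with at least 5 such genes (their number in brackets). Red ticks are medians of the lists, from 1.41 for G2/M genes to -1.35 for cAMP/CREB response genes, the blue line is the median of all genes (0.13), and dotted lines mark a difference of 1 in either direction.

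Of the core factors of XEN identity, *Sox17* was higher at d20 and the Gata factors were lower, though these calls depend in part on the processing. Of 16 XEN transcription factors 13 were past the floor, of which 2 were higher and 2 lower by over 1, beside 14.9% and 10.3% of all genes, and the median difference of 0.04 (-0.53 to 1.70) gave no single direction. *Sox17* (ENSMUSG00000025902, chr1:4481009-4486494 of mm9, reverse strand), which binds DNA through an HMG box and drives endoderm programmes, ran from 39.3 to 2222 CPM in d20 cells with a median of 836, and from 4.80 to 1803 CPM in d12c cells with a median of 600.4. It had a UMI in every cell of both groups. The groups overlapped over most of their range, and the d12c cells reached lower levels. The d12c cells with the highest fibroblast sums (2895, 1411 and 496 CPM) were those lowest in *Sox17*. At d20 the cell with the highest sum (1141 CPM) was also among the lowest. What such cells together add to the difference was not tested. Summed over cells, *Sox17* held 911 CPM (891 to 931) at d20 and 663 CPM (646 to 681) at d12c. Its difference was 1.09, but 0.93 with TMM factors, 0.86 with size factors of DESeq2, 0.59 with the log2 of the mean CPM, 0.26 among cells with at least 6000 genes and 2.26 with no filter on cells, so its call rests on the scaling, the averaging and the cells taken. At d0 it had a UMI in 1 of 72 cells.

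*Tcf7l2* (ENSMUSG00000024985, chr19:55816300-56008144), which carries beta-catenin to Wnt target genes, ran from 6.94 to 1571 CPM at d20, with a median of 389, and from 0 to 1018 CPM at d12c, with a median of 247. The d12c cells with the highest fibroblast sums were also those lowest in this gene. Levels of *Tcf7l2* were higher at d20 by 1.46, with wide overlap, but by 0.79 with the log2 of the mean CPM and by 0.098 among cells with at least 6000 genes. It is no marker of the XEN state by itself, since 69 of 72 d0 cells held a UMI.

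*Gata4* (ENSMUSG00000021944, chr14:63817759-63890529, reverse strand) and *Gata6* (ENSMUSG00000005836, chr18:11052508-11085633) are zinc finger factors that start and keep primitive endoderm. *Gata4* ran from 0 to 563 CPM with a median of 91.4 in d20 cells, and from 0 to 509 CPM with a median of 175 in d12c cells. *Gata6* had a median of 0 CPM and a highest value of 185 CPM at d20, and a median of 38.01 CPM and a highest value of 322 CPM at d12c. For both genes the lower group held more cells without a UMI, and the ranges overlapped. *Gata4* had a UMI in 34 of 38 d20 cells (89.5%, interval 75.2% to 97.1%) and in 29 of 30 d12c cells (96.7%, interval 82.8% to 99.9%). *Gata6* had one in 18 of 38 d20 cells (47.4%, interval 30.98% to 64.2%) and in 24 of 30 d12c cells (80%, interval 61.4% to 92.3%). In cells thinned to 50000 UMIs, which matches the number of UMIs only, *Gata6* was found in 12 of 36 d20 cells and in 17 of 26 d12c cells. The fall of *Gata4* was -1.15 and that of *Gata6* was -2.43, and every d20 block lay below every d12c block for both. Against all kept d12c cells, numbers 1 to 96, *Gata4* was higher at d20, by 0.86. Its difference was -0.79 with no filter on cells and -0.85 with a pseudocount of 10 CPM.

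The other XEN factors past the floor had differences within 1, though among cells with at least 6000 genes some passed it (*Foxa2* at -1.76, *Esx1* at 2.14, *Elf3* at -1.20 and *Gbx2* at -1.22). *Sall4*, a zinc finger factor of early embryo cells, had a median of 64.7 CPM (0 to 369) at d20 and of 70.6 CPM (0 to 517) at d12c, and its difference was 0.51, or -0.46 in those cells. *Foxa2*, a forkhead factor of endoderm, was found in 18 of 38 and 19 of 30 cells, with a difference of -0.68. *Cited1*, a transcriptional coactivator, was found in every cell of both groups, with medians of 1762 and 2126 CPM and a difference of 0.04. Further differences were 0.35 for *Sox7*, 0.82 for *Esx1*, -0.35 for *Elf3*, -0.69 for *Gbx2* and -0.91 for *Foxq1*. Under the floor were *Foxa1*, with no UMI in either group, *Hnf4a*, found in 1 d20 cells and 0 d12c cells, and *Foxa3*, found in 0 and 1. A UMI of *Sall4*, *Foxa2* or *Elf3* was found in 0 of 72 d0 cells, which allows a share with a UMI of up to 4.17%. *Gata6* had a UMI in 23 of 72 d0 cells and *Cited1* in 28.

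Factors were held together in single cells. All 4 of *Sox17*, *Sall4*, *Gata4* and *Foxa2* had a UMI in 17 of 38 d20 cells and in 14 of 30 d12c cells, and 3 of them in 16 and 14 cells. After thinning, all 4 were found in 9 of 36 and 9 of 26 cells. *Gata6* was found together with *Gata4* in 17 of 38 d20 cells and in 23 of 30 d12c cells.

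**Figure D2:**
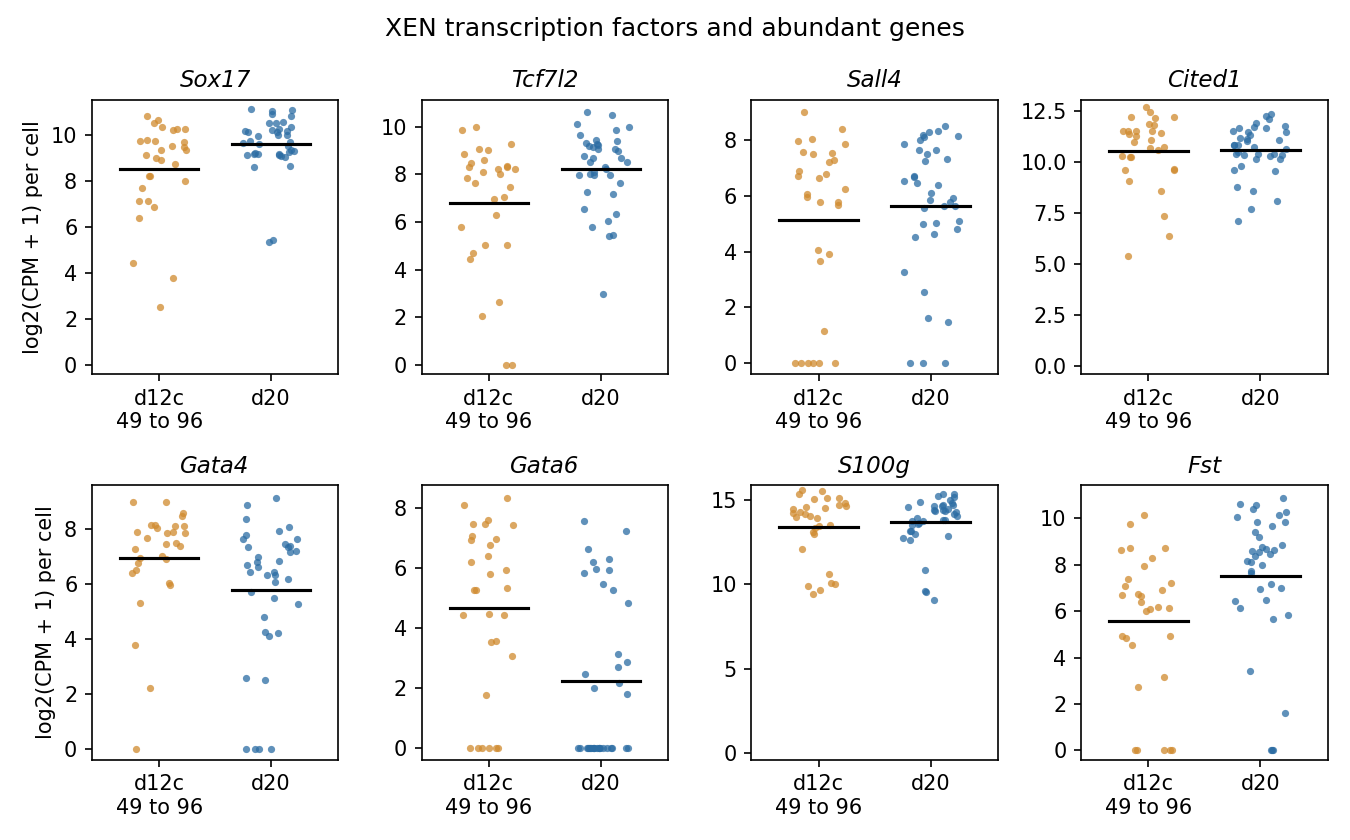
Each point is the log2(CPM + 1) of a cell, with 30 d12c cells numbered 49 to 96 in orange and 38 d20 cells in blue, and black lines are means. *Sox17*, *Tcf7l2* and *Fst* lay higher at d20, *Gata4* and *Gata6* lower, and *Sall4*, *Cited1* and *S100g* within 1.

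Basement membrane genes lay higher at d20, though not among the cells with most genes. Of 21 basement membrane and parietal endoderm genes 20 were past the floor, of which 8 were higher by over 1 and 0 lower, with a median difference of 0.72 (0.099 to 1.42) against 0.13 over all genes. Among cells with at least 6000 genes the median was 0.099, under the 0.31 of all genes. *Serpinh1* (ENSMUSG00000070436, chr7:106493885-106501740, reverse strand), the chaperone that folds collagen in the endoplasmic reticulum, ran from 9.82 to 177 CPM at d20, with a median of 74.7, and from 0 to 83.1 CPM at d12c, with a median of 13.5. All 38 d20 cells held it, against 22 of 30 d12c cells, and the d20 cell was the higher in 90.9% of all pairs of a d20 and a d12c cell. In this and later shares of pairs, ties were split evenly between the groups. Its difference of 2.91 was the largest of the list. *Fst*, which binds activin, had a median of 344 CPM (0 to 1904) at d20 and 77.1 CPM (0 to 1148) at d12c, and was higher by 1.98. The laminin chain *Lamc1* had a median of 61.7 CPM (0 to 408) at d20 and of 9.98 CPM (0 to 729.96) at d12c. Its partner *Lamb1* had medians of 175 and 94.6 CPM, and *Lama1*, the alpha chain of the embryonic laminin trimer, 56.01 and 14.1 CPM. All 3 chains were higher at d20, by 1.57, 1.27 and 1.43 in this order, but among cells with at least 6000 genes by 0.19, -0.097 and 1.45. In those cells the difference was 0.16 for *Fst* and 2.25 for *Serpinh1*. *Sparc* was found in every cell and had a difference of 0.95, or 0.17 in those cells, with medians of 1174 and 633 CPM. The lowest of the list were *Nid1* (-0.57), which links laminin to collagen, *Lama5* (-0.33) and the plasminogen activator *Plat* (-0.18), each with a median of 0 CPM in both groups.

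XEN markers as a whole, which share 6 of their 18 members with that list, had 17 members past the floor, 5 higher (*Sox17*, *Dab2* and the 3 laminin chains) and 2 lower (*Gata4* and *Gata6*) by over 1, and a median difference of 0.61 (-0.20 to 1.66), which turned to -0.20 among cells with at least 6000 genes. Few genes of the secreting side of the lineage were past the floor. Of 21 visceral endoderm and yolk sac secretory genes, 20 were in the table, 3 were past the floor, and 11 had no UMI in either group. *Rbp4*, the carrier of retinol in plasma, had a highest value of 1799 CPM at d20 and of 112 CPM at d12c, with a UMI in 20 of 38 and 6 of 30 cells. It was higher at d20 by 1.81, but lower against all kept d12c cells (-0.84). *Ihh*, a hedgehog ligand of visceral endoderm, had medians of 3.59 and 29.4 CPM and was lower by -1.28, a direction that also turned against all kept d12c cells, to 0.12. *Apoe*, an apolipoprotein, was found in every cell and differed by 0.10.

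Of 16 endocytic receptors and adaptors 14 were past the floor, with 1 higher and 1 lower, beside 14.9% and 10.3% of all genes. The median difference was 0.01 (-0.42 to 0.29). *Dab2*, the adaptor that draws receptors into clathrin pits, was higher by 1.19, with a UMI in 22 of 38 and 13 of 30 cells, but its difference was 0.94 with size factors of DESeq2 and -0.42 among cells with at least 6000 genes. *Lrp2*, the receptor megalin, differed by 0.91 and the recycling GTPase *Rab11a* by 0.79. *Rab5a*, the GTPase of early endosomes, was lower by -1.07, or -0.95 with size factors of DESeq2. The receptor *Lrp1* differed by -0.91 and the sorting nexin *Snx5* by -0.78. All 21 lysosome genes were past the floor, with 0 higher, 1 lower and a median of -0.06 (-0.42 to 0.23). The lower gene was *Grn* (progranulin), with medians of 63.97 and 102 CPM and a difference of -1.03, which was 0.32 among cells with at least 6000 genes. The other named members were within 1, from *Lgmn* (-0.62) and *Npc1* (-0.47) to *Cd63* (0.45), *Ctsa* (0.54) and *Ctsz* (0.59).

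Junction genes were lower at d20. Of 23 epithelial junction and keratin genes 19 were past the floor, of which 0 were higher and 8 lower by over 1, with a median of -0.76 (-1.16 to -0.53). *Cldn7* (ENSMUSG00000018569, chr11:69778281-69781387), a claudin of tight junctions, had a median of 0 CPM at d20 and a highest value of 549, and a median of 68.8 CPM and a highest value of 1387 at d12c. It was found in 16 of 38 d20 cells (42.1%, interval 26.3% to 59.2%) and in 25 of 30 d12c cells (83.3%, interval 65.3% to 94.4%), and its difference was -3.09. *Cldn3*, a further claudin, was found in 0 of 38 d20 cells and in 12 of 30 d12c cells, with a highest value of 329 CPM. No UMI of *Cldn3* at d20 allows up to 0.341 CPM over the summed UMIs of the group, against 29.4 CPM (25.8 to 33.3) at d12c. *Crb3*, a polarity protein of the apical membrane, had medians of 1.86 and 61.7 CPM and was lower by -2.37. *Cdh1*, the cadherin of adherens junctions, was found in 18 of 38 and 24 of 30 cells, with medians of 0 and 22.3 CPM, and was lower by -1.82. Of the named genes *Cdh1*, *Krt19*, *Meg3*, *Rnf43*, *Nkd1* and, where a list held 5 or fewer called genes, members outside the naming rule were chosen after their values were seen. Keratins of simple epithelia differed, since *Krt8* (0.08) and *Krt18* (0.36) were found in every cell and lay within 1, while *Krt19* was lower by -1.24. *Cldn6* (0.37) also lay within 1.

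Actin genes lay lower as well, by less among the cells with most genes. Of 21 actin and SRF target genes 16 were past the floor, with 0 higher, 5 lower and a median of -0.71 (-1.41 to -0.12), or -0.12 among cells with at least 6000 genes. *Myl9*, the regulatory light chain of myosin, had a median of 284 CPM (0 to 3628) at d20 and of 1215 CPM (18.95 to 3348) at d12c, and was lower by -1.81. *Cyr61*, a matricellular protein, had medians of 4.96 and 119 CPM and was lower by -2.40, and the crosslinker *Actn1* by -1.51, or -0.25 among cells with at least 6000 genes. The cytoplasmic actin *Actg1* (-1.08) and the calponin *Cnn2* (-1.16, but 0.47 among cells with at least 6000 genes) were the other lower genes. The highest members were *Flna* (0.71), *Tagln2* (0.36) and *Tpm4* (0.19). *Actb* was found in every cell, with medians of 1065 and 1824 CPM and a difference of -0.54, or -0.12 in such cells. Reads of actin, ribosomal, ferritin and Hsp70 genes and of the ribosomal RNA precursor can match near-identical copies, so the counts of single members are less certain.

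Of 25 fibrillar collagen and mesenchymal matrix genes 15 were past the floor, with 2 higher and 3 lower, beside 14.9% and 10.3% of all genes. The median was -0.10 (-2.01 to 0.62). Lower at d20 were *Dcn*, *Timp2* (-1.26), an inhibitor of metalloproteinases found in 5 of 38 and 13 of 30 cells, and the calcium-binding protein *S100a6* (-1.20). For *S100a6* the log2 ratio of mean CPM was 0.72, above 0, with a highest d20 value of 2036 CPM and medians of 8.81 and 18.7 CPM. Among cells with at least 6000 genes *S100a6* was higher at d20, by 1.19. Higher were *Fbn1* and *Timp1* (1.01), the latter with medians of 79.3 and 54.2 CPM and a difference of 0.71 with size factors of DESeq2. *Timp1* was lower with a minimum of 2000 detected genes (-0.017) and against all kept d12c cells (-0.11). *Col6a1* differed by 0.97, with a highest value of 1119.97 CPM at d20 and a median of 0 CPM in both groups. The crosslinking enzyme *Loxl2* was found in every cell and differed by -0.05.

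Cell division genes were higher at d20. All 22 G2/M genes were past the floor and had a difference above 0, 16 of them above 1 and 0 below -1, with a median of 1.41 (0.42 to 2.77), the highest of the lists with at least 5 genes past the floor. The median was 0.71 with a minimum of 2000 genes and 0.42 with the d20 cells numbered 25 to 48 alone, where *Ccnb2* stood at -0.55 and -0.96, so the shared direction of all members holds for the cells compared here and not throughout. In 12 of the 22 genes every d20 block lay above every d12c block, against 20.3% of all genes. *Cdk1* (ENSMUSG00000019942, chr10:68799383-68815686, reverse strand), the kinase that starts mitosis, had a median of 247 CPM (0 to 766) at d20 and of 7.68 CPM (0 to 399) at d12c. It was found in 37 of 38 d20 cells (97.4%, interval 86.2% to 99.9%) and in 21 of 30 d12c cells (70%, interval 50.6% to 85.3%), and summed UMIs gave 321 CPM (309 to 333) and 58.99 CPM (53.9 to 64.5). The difference was 3.56, and the d20 cell was the higher in 83.2% of pairs. *Plk1*, a kinase of the spindle poles, had medians of 104 and 0 CPM and was higher by 2.99. *Ube2c*, which passes ubiquitin to the substrates of the anaphase-promoting complex, had medians of 139 and 41.1 CPM and was higher by 2.07. The lowest differences of the list were those of *Ccnb2* (0.53), a cyclin, *Birc5* (0.68), the survivin of the chromosomal passenger complex, and *Ccna2* (0.69).

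Cells differed widely in these genes within a group. The summed level of the 22 genes ran from 139 to 8881 CPM at d20, with a median of 3161 and quartiles of 994 and 5116. At d12c it ran from 53.7 to 5842 CPM, with a median of 1373 and quartiles of 329 and 2720.1. Both groups thus held cells with high and with low sums, and the median of d20 cells lay above the upper quartile of d12c cells.

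All 20 S phase genes were past the floor, with 7 higher, 0 lower and a median of 0.77 (0.031 to 1.57). *Fen1*, the nuclease that trims Okazaki fragments, had medians of 131 and 45.3 CPM and was higher by 2.11. The licensing factor *Cdc6* was higher by 1.51 and the ribonucleotide reductase subunit *Rrm1* by 1.37, the latter by 0.98 with size factors of DESeq2. *Pcna*, the sliding clamp, differed by -0.63 and *Chaf1b* by -0.35. The summed level of the 20 genes had medians of 2043 CPM at d20 and 1715 CPM at d12c.

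Of 15 cell cycle inhibitors and p53 targets 13 were past the floor, with 1 higher, 1 lower and a median of -0.14 (-0.49 to 0.25). *Cdkn1c* (ENSMUSG00000037664, chr7:150644255-150646955), an imprinted inhibitor of cyclin-dependent kinases, was found in 10 of 38 d20 cells, with a median of 0 and a highest value of 176 CPM, and in 22 of 30 d12c cells, with a median of 53.6 and a highest value of 389 CPM. It was lower by -3.37, and its mean was 156 CPM at d12 and 319 CPM at d0. The related inhibitor *Cdkn1a* had medians of 819 and 558 CPM and a difference of 0.17, which was 2.06 among cells with at least 6000 genes and -0.49 with a minimum of 2000. *Ccng1*, a cyclin that p53 induces, was higher by 1.47, while *Bax* (0.82), *Btg2* (0.65), *Cdkn2b* (-0.76) and *Phlda3* (-0.91) lay within 1.

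**Figure D3:**
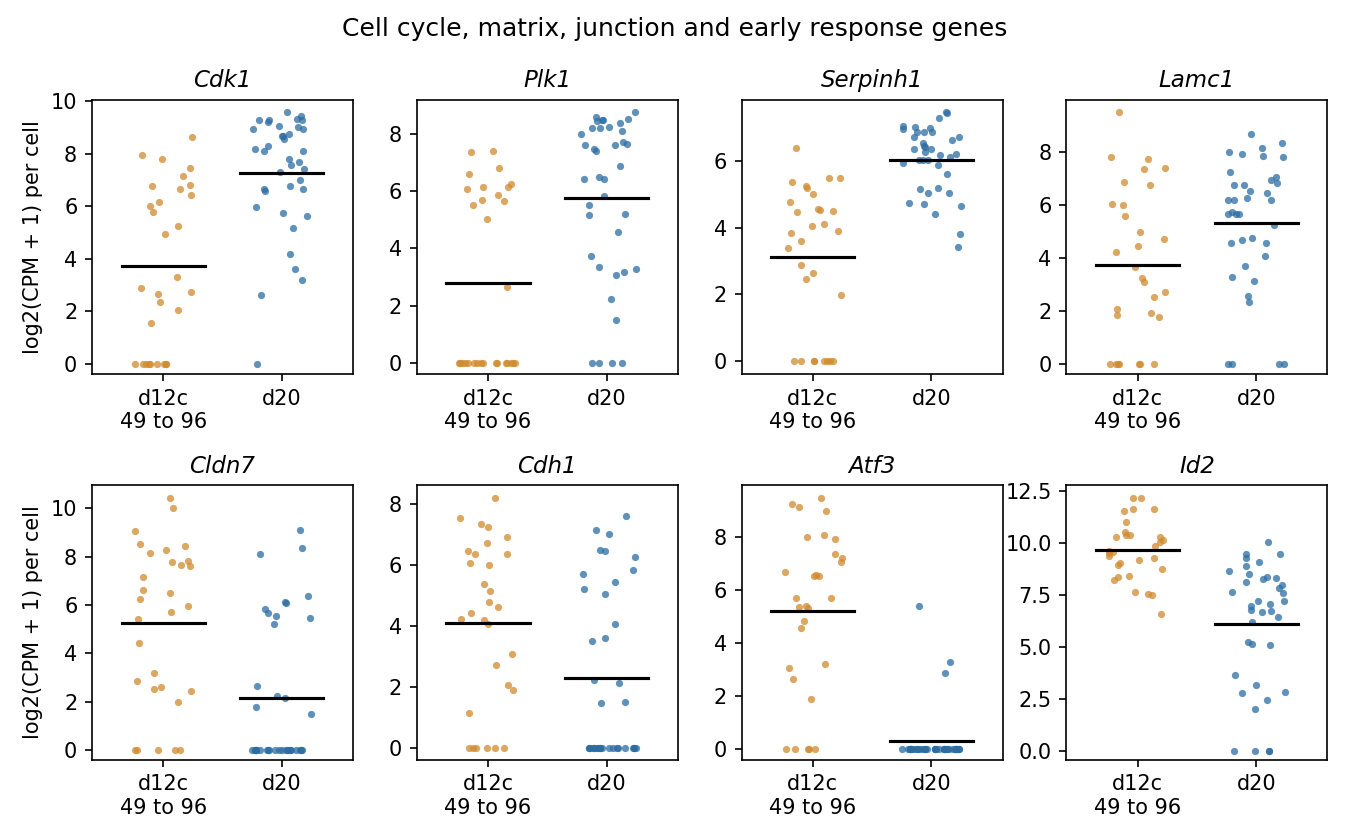
Each point is the log2(CPM + 1) of a cell, with 30 d12c cells numbered 49 to 96 in orange and 38 d20 cells in blue, and black lines are means. *Cdk1*, *Plk1*, *Serpinh1* and *Lamc1* lay higher at d20, and *Cldn7*, *Cdh1*, *Atf3* and *Id2* lay lower.

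Promoters of the division genes are shown because most of these genes were called higher and many such genes are known to share a cell cycle element known as CHR, spelled TTTGAA and searched on both strands in the 250 bases before each gene's start. Sequences are from the RefSeq promoter table on GRCm38.p6, a later build than the mm9 of the counts, and 19 of the 22 G2/M genes had a sequence. The letters were found in 7 of the 19 (36.8%), namely *Mki67*, *Top2a*, *Ccnb2*, *Cdk1*, *Cdc20*, *Kif11* and *Ube2c*, against 18.3% of 27025 genes with a promoter and 12.5% of those past the floor. The letters were also found in 2 of 16 S phase genes with a sequence (12.5%) and in 15.6% of genes higher by over 1. A match is a description of the sequence and shows no binding. The lines below run 5′ to 3′ on the gene's strand, with TTTGAA or its reverse complement in capitals, for *Cdk1* (chr10:69352913-69353162, reverse strand) and *Ube2c* (chr2:164769679-164769928, forward strand).
Cdk1: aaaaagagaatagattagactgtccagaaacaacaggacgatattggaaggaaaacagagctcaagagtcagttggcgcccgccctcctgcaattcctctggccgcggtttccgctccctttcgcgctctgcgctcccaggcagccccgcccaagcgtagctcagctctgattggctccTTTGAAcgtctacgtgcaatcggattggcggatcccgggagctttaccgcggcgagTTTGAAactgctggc
Ube2c: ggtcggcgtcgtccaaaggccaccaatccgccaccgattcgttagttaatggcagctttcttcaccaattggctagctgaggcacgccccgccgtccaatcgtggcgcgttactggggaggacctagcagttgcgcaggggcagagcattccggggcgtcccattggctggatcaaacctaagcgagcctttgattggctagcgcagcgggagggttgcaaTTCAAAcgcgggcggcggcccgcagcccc

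Early response genes were lower at d20. Of 16 immediate early genes 13 were past the floor, with 0 higher, 8 lower and a median of -1.12 (-1.80 to -0.48). *Atf3* (ENSMUSG00000026628, chr1:192994175-193007219, reverse strand), a stress-induced bZIP factor, was found in 3 of 38 d20 cells (7.89%, interval 1.66% to 21.4%), none above 40.3 CPM, and in 25 of 30 d12c cells (83.3%, interval 65.3% to 94.4%), with a median of 50.5 CPM and a highest value of 708 CPM. Most d12c cells lay above every d20 cell. The d20 cell was the higher in 10.2% of pairs, with ties split evenly between the groups. Much of this share came from pairs in which neither cell held a UMI. The difference of *Atf3*, -4.90, was the largest fall among the genes that could be named, and it is in the lists of immediate early and of ER stress genes. The mean of *Atf3* was 11.7 CPM at d12, 5.04 CPM in d12c cells numbered 1 to 48 and 4.56 CPM at d0, against 141 CPM in the d12c cells compared here.

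*Jund*, a subunit of AP-1, had medians of 0 and 28.3 CPM and was lower by -2.72, and *Ier3* by -1.89, with medians of 1.53 and 56.7 CPM. *Jun* and *Ier2* were found in all but 1 of the 38 d20 cells and in every d12c cell, and differed by -0.86 and -0.63. *Myc*, a growth factor response gene, differed by 0.60 and *Btg2* by 0.65. The summed level of the 16 genes had a median of 1170.1 CPM (459.9 to 2871) at d20 and of 1659 CPM (598 to 12588) at d12c. Immediate early genes also respond to handling of cells, and what handling adds to these levels was not tested.

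Of 20 ER stress and amino acid response genes 18 were past the floor, with 0 higher, 5 lower and a median of 0.04 (-0.52 to 0.25). Among the lower genes were transcription factors of the response: *Atf4*, with medians of 44.6 and 245 CPM, by -3.14, and *Cebpb*, found in 1 of 38 and 14 of 30 cells, by -1.62. With *Atf3*, the remaining lower genes were the factor *Ddit3* (-1.52) and the amino acid transporter chain *Slc3a2* (-1.03). The chaperones lay within 1, with 0.92 for *Hsp90b1* and 0.32 for *Hspa5*, as did the splicing-activated factor *Xbp1* (0.63) and the asparagine synthetase *Asns* (0.61).

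The cocktail acts on several signalling pathways, whose response genes were listed. Forskolin raises cAMP: of 17 cAMP/CREB response genes 8 were past the floor, with 0 higher, 4 lower and a median of -1.35 (-2.52 to -0.33). The orphan receptor *Nr4a1* was found in 9 of 38 d20 cells and 26 of 30 d12c cells, with medians of 0 and 27.5 CPM, and was lower by -3.01. Its relative *Nr4a2* was lower by -2.52 and *Rgs2*, which shortens signals of G proteins, by -2.01. *Dusp1*, a phosphatase of MAP kinases, had medians of 10.5 and 84.7 CPM and was lower by -2.80. *Ramp1*, a partner of the CGRP receptor, had medians of 438 and 386 CPM and differed by -0.17, the repressor and activator *Crem* by 0.44 and the phosphodiesterase *Pde4d* by 0.50. Neither the cAMP level nor the activity of a pathway was measured.

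The cAMP response element CRE is spelled TGACGTCA, which reads the same on both strands. It was found in 3 of the 14 cAMP/CREB response genes with a promoter (21.4%), *Areg*, *Dusp1* and *Pcsk1*. In none of them it overlaps a TTTGAA. The share was 1.77% of all genes with a promoter and 3.53% of those past the floor. Among genes lower by over 1 it was 4.06%, and among those higher 3.24%. The list was made of known response genes, so its share says nothing about these cells. The promoter of *Dusp1* (chr17:26508473-26508722, reverse strand), of the 3 listed genes with a match the one past the floor, is shown with the element in capitals.
Dusp1: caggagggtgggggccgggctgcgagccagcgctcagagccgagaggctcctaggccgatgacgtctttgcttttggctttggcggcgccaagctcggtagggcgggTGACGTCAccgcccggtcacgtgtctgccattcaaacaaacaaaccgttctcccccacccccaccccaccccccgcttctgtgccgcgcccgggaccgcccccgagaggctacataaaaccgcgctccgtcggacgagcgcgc

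CHIR99021 stabilises beta-catenin. Of 17 Wnt/beta-catenin targets 14 were past the floor, with 3 higher and 5 lower, beside 14.9% and 10.3% of all genes. The median was -0.58 (-1.01 to 0.61), which turned to 0.61 among cells with at least 6000 genes and to 0.083 with UMIs summed first. The higher genes were some of the feedback inhibitors of the pathway: *Axin2*, with medians of 59.1 and 19.4 CPM and a difference of 1.17, *Znrf3* (1.66), which removes Wnt receptors, and *Dkk1* (1.25), which blocks a Wnt co-receptor. With size factors of DESeq2 the difference was 0.89 for *Axin2* and 0.97 for *Dkk1*, and with the 8 d20 cells numbered 49 to 72 alone that of *Dkk1* was -0.56. A further feedback inhibitor, *Notum*, which inactivates Wnt proteins, went the other way, with medians of 16.1 and 86.9 CPM and a difference of -1.95, and *Rnf43* (-0.82), the relative of *Znrf3*, and *Nkd1* (-0.63, but 2.14 among cells with at least 6000 genes), which also restrain the pathway, lay below 0 within 1. Also lower were *Sp5* (-1.90), a factor that Wnt induces, and the cyclin *Ccnd1* (-2.002), with medians of 109 and 137 CPM, as well as the factor *Sox4* (-1.32) and *Bmp4* (-1.30). Among cells with at least 6000 genes *Ccnd1* was higher at d20, by 0.61.

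AM580 activates a retinoic acid receptor. Of 20 retinoic acid response and metabolism genes 10 were past the floor, with 2 higher and 1 lower, beside 14.9% and 10.3% of all genes. The median was 0.02 (-1.12 to 0.73). *Cyp26a1*, which degrades retinoic acid and is induced by it, had a median of 2420.2 CPM (29.5 to 8777) at d20 and of 1062 CPM (26.4 to 5565) at d12c, against a mean of 0.0606 CPM at d0. Every cell of both groups held it, and its difference was 0.64, but -0.52 among cells with at least 6000 genes and 1.42 with no filter on cells. *Rbp4* was among the higher genes. *Dhrs3*, which turns retinal back to retinol, was lower by -1.74, and *Cyp26b1* (-0.67) lay within 1.

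The inhibitor abbreviated 6 blocks TGF-beta receptors. Of 15 TGF-beta targets and ligands 8 were past the floor, with 1 higher, 3 lower and a median of -0.88 (-1.43 to 0.059), which turned to 0.06 among cells with at least 6000 genes. *Bhlhe40*, a transcriptional repressor that hypoxia induces, had a median of 17.8 CPM (0 to 346) at d20 and of 181 CPM (22.1 to 1035) at d12c, and was lower by -3.66. The feedback inhibitor *Smad7* was lower by -1.01, but -0.84 with size factors of DESeq2 and higher by 0.75 against the 15 d12c cells numbered 49 to 72, and *Skil* was lower by -1.01. *Ltbp1*, which tethers latent TGF-beta to the matrix, was found in 25 of 38 and 9 of 30 cells and was higher by 2.11. The receptors *Tgfbr1* (0.76) and *Tgfbr2* (-0.28) and the ligand *Tgfb2* (-0.97, but 1.27 among cells with at least 6000 genes) lay within 1.

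Among 18 BMP ligands, antagonists and targets 10 were past the floor, with 1 higher, 4 lower and a median of -0.24 (-0.94 to -0.036). The ligand *Bmp2* had a median of 83.2 CPM (0 to 315) at d20 and of 12.4 CPM (0 to 203) at d12c, and was higher by 1.87. The target *Id2* (ENSMUSG00000020644, chr12:25778666-25780957, reverse strand), an inhibitor of bHLH factors, had a median of 129 CPM (0 to 1055) at d20 and of 769 CPM (95.1 to 4601) at d12c. Every d12c cell held *Id2*, at 95.1 CPM or more, while levels spread down to 0 at d20. The d20 cell was the higher in 11.1% of pairs, and the difference was -3.57. *Id2* had a mean of 678 CPM at d12. *Id3*, of the same family, was lower by -1.65 (-0.33 among cells with at least 6000 genes), with medians of 251 and 653 CPM, the pseudoreceptor *Bambi* by -1.38 and a further ligand, *Bmp4*, by -1.30. The receptor *Bmpr2* (0.67) and the homeobox target *Msx2* (0.82, but -1.35 among cells with at least 6000 genes) lay within 1.

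Of 20 FGF/ERK signalling and feedback genes 12 were past the floor, with 0 higher, 2 lower and a median of -0.62 (-1.84 to 0.35), which turned to 0.35 among cells with at least 6000 genes. Both of the lower genes restrain ERK signalling: *Spry2*, with medians of 7.22 and 61.2 CPM, was lower by -2.83, and the phosphatase *Dusp4*, found in 3 of 38 and 16 of 30 cells, by -2.39. Within 1 were *Spry1* (-0.96), *Dusp6* (-0.10), the receptors *Fgfr1* (0.28) and *Erbb2* (0.63), and the ligand *Fgf3* (0.68). Of 7 PDGF and Kit signalling genes 4 were past the floor, with 1 higher, 1 lower and a median of 0.51 (-0.52 to 1.03), which was -0.52 against all kept d12c cells. *Kit*, the receptor of stem cell factor, had a median of 26.3 CPM (0 to 267) at d20 and of 0 CPM (0 to 134) at d12c. It was found in 28 of 38 and 10 of 30 cells and was higher by 2.37, or by 0.52 among cells with at least 6000 genes. Its ligand *Kitl* differed by 0.95. *Pdgfra*, the receptor that marks primitive endoderm, had medians of 192 and 146 CPM and a difference of 0.08, while the ligand *Pdgfa* was lower by -1.46, with medians of 2.55 and 80.6 CPM.

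Of 15 genes of the IGF axis and IGF-binding proteins 13 were past the floor, with 2 higher, 5 lower and a median of -0.50 (-1.01 to -0.080). *Igf2*, a growth factor expressed from the paternal allele, had a median of 171 CPM (0 to 743) at d20 and of 396 CPM (41.3 to 5950.3) at d12c, and was lower by -2.09. The binding proteins *Igfbp5* (-1.88), *Igfbp3* (-1.81), *Igfbp2* (-1.18) and *Igfbp7* (-1.08) were also lower, *Igfbp7* by -0.88 with size factors of DESeq2. *Igf2bp1*, which binds *Igf2* RNA, was higher by 1.71, with medians of 132 and 51.2 CPM, and the insulin receptor *Insr* by 1.13, or 0.89 with size factors of DESeq2, with a UMI in 10 of 38 and 2 of 30 cells. *Igf2bp2* differed by 0.21.

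Of 24 imprinted genes 23 were in the table and 19 past the floor, with 2 higher, 4 lower and a median of -0.20 (-0.71 to 0.15). *H19*, the maternally expressed RNA beside *Igf2*, had medians of 504 and 789 CPM and was lower by -1.18, so both genes of this locus and *Cdkn1c* were lower (among cells with at least 6000 genes *H19* by -0.38 and *Igf2* by -0.97), as was *Nnat* (-1.17, or -0.97 with size factors of DESeq2, and 0.13 among cells with at least 6000 genes). *Dlk1* (1.04) and *Rian* (1.12), of a further imprinted locus and expressed from opposite alleles, were higher, but by 0.71 and 0.81 with size factors of DESeq2, and *Meg3* of the same locus differed by -0.23. *Grb10*, an adaptor of insulin receptors, differed by 0.98.

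Of 25 glycolysis and hypoxia genes 24 were in the table and 22 past the floor, with 1 higher, 6 lower and a median of -0.57 (-0.84 to -0.38). *Gapdh* was found in every cell, with a median of 1223 CPM (669.9 to 2485) at d20 and of 1815 CPM (929 to 3866) at d12c, and a difference of -0.54. *Pdk1*, the kinase that shuts pyruvate dehydrogenase, was found in 8 of 38 and 18 of 30 cells and was lower by -1.82. The hypoxia-induced peptide *Adm* was lower by -2.14 and the growth factor *Vegfa* by -1.20, or -0.97 with size factors of DESeq2. *Slc2a3*, a glucose transporter of high affinity, went the other way, with a median of 457 CPM (17.2 to 1453) at d20 and of 138 CPM (0 to 663) at d12c. It was higher by 1.76, while *Pfkl* (0.67) and *Ero1l* (0.27) lay within 1.

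Of 32 nuclear oxidative phosphorylation genes 31 were past the floor, 0 were higher or lower by over 1, and the median was -0.07 (-0.28 to 0.32). The named members ran from *Cox7b* (-0.53), *Cox8a* (-0.42) and *Atp5a1* (-0.33) to *Ndufa13* (0.29), *Ndufb8* (0.31) and *Sdhb* (0.33), with *Cox4i1* at -0.19. Ribosomal protein genes had small differences of a single direction. All 30 were past the floor and had a difference below 0, none passed 1 in size, and the median was -0.41 (-0.62 to 0.015), against 0.01 without the filter on cells. In 27 of the 30 every d20 block lay below every d12c block, against 16.2% of all genes. Their summed level had a median of 59492 CPM at d20 and of 81150.5 CPM at d12c. *Rpl10a* had the lowest difference (-0.92), with medians of 711 and 1349.8 CPM, followed by *Rpl18* (-0.66) and *Rps18* (-0.61), and *Rpl7* (-0.19), *Rpl5* (-0.15) and *Rpl4* (-0.12) lay nearest 0.

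Of 19 sterol synthesis genes 17 were in the table and past the floor, with 0 higher, 1 lower and a median of -0.41 (-1.06 to -0.14). The lower gene was *Mvk*, the mevalonate kinase, found in 8 of 38 and 14 of 30 cells, at -1.34. In the same pathway *Mvd* differed by -0.93, and *Nsdhl* by -0.92, *Fdps* by -0.47, *Cyp51* by 0.03, *Dhcr7* by 0.16 and *Lss* by 0.21. All 18 iron, metallothionein and antioxidant genes were past the floor, with 0 higher, 3 lower and a median of -0.49 (-0.92 to -0.32). *Hmox1*, which degrades heme, had medians of 4.97 and 133 CPM and was lower by -2.63. *Mt2*, a metallothionein, had medians of 123 and 444 CPM and was lower by -2.40. *Gclm*, a subunit of the enzyme that starts glutathione synthesis, was lower by -1.26. *Ftl1* (0.05), a ferritin chain, the peroxiredoxin *Prdx1* (0.06), *Gstm1* (0.38) and the catalase *Cat* (0.43) lay within 1.

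EPZ004777 inhibits Dot1l, an enzyme of chromatin. Of 15 DNA methylation and chromatin enzymes 14 were past the floor, with 1 higher and 2 lower, beside 14.9% and 10.3% of all genes, and a median of 0.18 (-0.13 to 0.35). *Dnmt1*, the methyltransferase that copies methylation after replication, had medians of 23.7 and 0 CPM, was found in 27 of 38 and 12 of 30 cells, and was higher by 1.78. *Hdac2*, a histone deacetylase, had medians of 1.04 and 27.8 CPM and was lower by -1.99, whereas *Hdac1* differed by 0.25. *Dot1l* itself stood at the limit, with a difference of -1.004, -0.87 with size factors of DESeq2 and 0.23 with the 8 d20 cells numbered 49 to 72 alone. *Ezh2* (0.87), *Dnmt3b* (0.47) and *Suz12* (-0.96) lay within 1. Of 9 high mobility group genes 8 were past the floor, with 1 higher, 0 lower and a median of 0.20 (-0.14 to 0.65). The higher gene was *Hmgn5* (1.15, or 0.85 with size factors of DESeq2), a nucleosome-binding protein. The members *Hmgb2* (-0.30), *Hmgb1* (-0.09), *Hmgb3* (0.04), *Hmgn2* (0.28), *Hmgn3* (0.34) and *Hmga2* (0.44) lay within 1.

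Of 21 pluripotency-linked genes 9 were past the floor, with 1 higher, 2 lower and a median of 0.50 (-0.28 to 0.78), which was -0.28 with the log2 of the mean CPM. The Krüppel-like factors were lower, *Klf4* with a median of 84.5 CPM (0 to 547) at d20 and of 318 CPM (12.6 to 1328) at d12c and a difference of -2.53, and *Klf5* with a difference of -1.26. *L1td1*, an RNA-binding protein of stem cells, was found in 19 of 38 and 9 of 30 cells and was higher by 1.43. *Tbx3* (0.88), *Lin28b* (0.56) and *Tdh* (-0.09) lay within 1. Of 19 interferon response and MHC class I genes 10 were past the floor, with 0 higher, 2 lower and a median of -0.15 (-0.85 to 0.23). The lower genes were *Irf1* (-1.40), a factor that interferon induces, and *Ifitm2* (-1.17), a membrane protein found in every cell of both groups with medians of 502 and 996 CPM. Within 1 were *Ifitm3* (-0.66), *B2m* (0.16), *Stat2* (0.79) and *Tap1* (0.85).

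Markers of other lineages were few. Of 13 trophectoderm and trophoblast markers 4 were past the floor with 0 called and a median of -0.61 (-1.10 to -0.31), and 5 had no UMI in either group. The differences were -0.96 for *Plac1*, -0.68 for *Tfap2a*, -0.55 for *Eomes* and -0.40 for *Cdx2*, each with a median of 0 CPM in both groups. Of 10 definitive endoderm and mesendoderm markers 2 were past the floor, with a median of -0.98 (-1.84 to -0.059), and the homeobox gene *Hhex*, found in 7 of 38 and 13 of 30 cells, was lower by -1.41. Of 10 hepatocyte and gut markers 2 were past the floor, *Cdx2* and *Lgr5* (-0.44), with a median of -0.42 (-0.90 to 0.19). None of 8 endothelial markers was past the floor, and 4 had no UMI in either group. Of 8 macrophage markers 7 were in the table and 1 was past the floor, *Cd68*, a lysosomal protein, at 0.14. Of 8 neural markers 3 were past the floor, with a median of 1.29 (-1.46 to 1.28): the intermediate filament *Nes* (1.40) and the homeobox gene *Pax6* (1.29, or 0.95 with size factors of DESeq2) were higher and *Stmn2* (-1.46) was lower. *Nes* was -0.071 against all kept d12c cells and *Stmn2* was 0.20 with UMIs summed first, so these directions did not hold throughout.

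Of 8 RNA quality and nuclear RNA genes 7 were past the floor, with 1 higher, 2 lower and a median of -0.06 (-0.92 to 0.51). The nuclear RNA *Malat1* was found in every cell, with medians of 8128 and 7503 CPM and a difference of 0.13. *Neat1*, the RNA of nuclear paraspeckles, had medians of 0 and 24.5 CPM and was lower by -2.07. Heat shock genes split: *Hspa1a* was found in 3 of 38 and 11 of 30 cells and was lower by -1.79, *Hsph1* had medians of 66.5 and 20.3 CPM and was higher by 1.47, and *Dnaja1* differed by 0.62. *Xist* differed by -0.27. The part of cell handling and RNA quality in the other differences was not tested.

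The 12 largest rises held few listed genes. *Alg3* (ENSMUSG00000033809, chr16:20605524-20610841), a mannosyltransferase of N-glycan assembly, had a median of 128 CPM (0 to 370.3) at d20 and of 0 CPM (0 to 161) at d12c. It was found in 36 of 38 d20 cells and 14 of 30 d12c cells, and its difference of 3.79 was the largest. *Ccnf*, a cyclin of the F-box family, was found in 34 of 38 and 10 of 30 cells and was higher by 3.59. *Spc25*, a kinetochore protein, had medians of 224 and 40.4 CPM and was higher by 3.02. *Cdk1* and *Plk1*, described above, are also among the 12. Further rises were those of *Cbx5* (3.23), the heterochromatin protein HP1 alpha, with medians of 132 and 7.38 CPM, *Mphosph8* (3.14), a reader of silent chromatin, and *Jade3* (3.52), a partner of histone acetyltransferases. *Flrt3*, an adhesion protein of the cell surface, had medians of 179 and 18.2 CPM and was higher by 3.25. The rest were *Yae1d1* (3.29), *BC003965* (3.19) and the monooxygenase *Fmo1* (3.06). For each of the 12, cells of both groups overlapped, with at least 1 cell at 0 in either group.

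The 12 largest falls had mixed roles. *Mgst1* (ENSMUSG00000008540, chr6:138088837-138105276), a glutathione transferase of membranes, was found in 4 of 38 d20 cells, none above 37.9 CPM, and in 26 of 30 d12c cells, with a median of 62.7 and a highest value of 2599.8 CPM. It was lower by -4.70, and its mean was 1149 CPM at d12 and 139.7 CPM at d0. *Klf9*, a factor that glucocorticoids induce, had a median of 0 CPM (0 to 191) at d20 and of 99.8 CPM (0 to 959) at d12c, and was lower by -4.25. *Pnrc1*, a coactivator of nuclear receptors, was found in 8 of 38 and 26 of 30 cells and was lower by -3.77. *Zfand5* (-3.41), a zinc finger protein that binds ubiquitin, was found in 23 of 38 d20 cells and in every d12c cell. *Tmem176b* (-3.27), a membrane protein, had medians of 3.77 and 201 CPM. *Yrdc* (-3.49), an enzyme of tRNA modification, *Nsmce4a* (-3.26), of the SMC5/6 complex, and *Prr5* (-3.25), of the kinase complex mTORC2, complete the set with *Atf3*, *Bhlhe40*, *Id2* and *Cdkn1c*.

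The day 12 cells not picked from colonies give a background for these falls. Means at d12 were above those of the d12c cells for *Mgst1* (1149 against 249.8 CPM) and below them for *Yrdc* (16.4 against 61.95 CPM) and *Nsmce4a* (11.5 against 95.8 CPM). At d20 the same means were 1.99, 12.7 and 27.8 CPM. For *Yrdc* and *Nsmce4a*, as for *Atf3*, the d12c cells numbered 49 to 96 thus stood above d12, d0 and d20 alike, and whether a batch sets these cells apart cannot be told from the names.

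The 5 most abundant genes were shared by both groups and lay within 1. *S100g*, the calcium-binding protein calbindin-D9k, had a median of 17432 CPM (529 to 41387) at d20 and of 17475 CPM (695 to 48026) at d12c. It had no UMI at d0 and a mean of 1136 CPM at d12, and the ranges of both XEN-like groups coincided, with a difference of 0.27. Besides *Malat1* and *Ftl1*, these genes were the ribosomal RNA precursor *Rn45s* (-0.75), with medians of 2724 and 4727 CPM, and *Rpl41* (-0.38), with medians of 5689.9 and 7937 CPM.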

How the data were processed

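The counts are the authors' own, from mm9 transcripts, with each UMI counted once after reads had been assigned to cells and trimmed. The aligner is not given in the sources used here. The deposited count table holds UMI counts of 23197 genes and 92 ERCC spike-in RNAs in 808 cells. Dates stood in place of 26 gene names, and 4 entries under repeated dates were left out. Counts of 100000 or more had been rounded. The 10 sequenced samples cannot be told from the cell names, so the table counts as 1 sample, and doublets were not removed.

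Cells needed at least 4000 detected genes. CPM were computed without ERCC counts, and log2 values with a pseudocount of 1. Shares were also taken after thinning to 50000 UMIs, for which 2 d20 and 4 d12c cells were too shallow. The members and the 40 gene lists were chosen with earlier results of these data known. Listed genes not in the table were *Emr1*, *Hmgcs1*, *Mirg*, *Pkm2*, *Sc4mol* and *Spink3*. Named genes were the 12 largest rises and 12 largest falls past the floor with the same sign in the log2 ratio of mean CPM, the XEN transcription factors, *Twist1*, *Twist2*, *Prrx1* and *Osr1*, the 5 most abundant genes of each group, and from every other list the 3 highest and 3 lowest differences and the most abundant member. Some genes that this rule takes are not reported here. No test and no paired analysis was made. Alternatives covered the filter on cells, pseudocount, averaging, depth, scaling, the floor, the size of the difference, number ranges and cells with high fibroblast markers. Positions are from GENCODE M1 on mm9, where 642 of 661 genes listed or named had 1 position. Tools were Python 3.11.15 with numpy 2.4.6, pandas 2.3.3, scipy 1.17.1 and matplotlib 3.10.9, and DESeq2 1.42.0 and edgeR 4.0.16 under R 4.3.3. Simulated cells had the mean levels of the d12c cells, the library sizes of both groups and an assumed spread between cells (gamma with a shape of 0.5). The changed genes were drawn only from genes above a minimum mean CPM in the d12c cells, which the calls did not require. Of 100 genes raised 4-fold 89 were higher by over 1, of 100 lowered 4-fold 92 were lower by over 1, and of 9792 unchanged genes 744 (7.60%) passed 1 in either direction. In the simulation 9992 genes were past the floor, against 8522 in the data. The recovery of genes with a lower mean was not measured.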

Additional observations from a re-analysis of the deposited data

How the results depend on the processing

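Of 21 alternatives 18 gave values of single genes. Of 250 named genes 123 had a difference past 1 in size, and 106 of these kept their direction under all 18. From 63 (pseudocount of 10 CPM) to 118 (TMM factors) of them stayed past 1 in the same direction. Of 4500 values of named genes under the alternatives, 3591 lay less than 1 SD from the reported value, 887 moved further without a called value changing sign and 22 reversed. With no replicates, and no binomial interval for a mean of log2 values, this SD was taken over the differences between the 3 blocks of d20 and the 2 blocks of d12c cell numbers, which are not replicates. Medians of the gene lists changed sign in 114 of 771 values, over 25 of 39 lists. Among the lists further from 0, with 6000 genes the median turned from -0.88 to 0.059 for TGF-beta, from -0.62 to 0.35 for FGF/ERK, from -0.58 to 0.61 for Wnt and from 0.61 to -0.20 for XEN markers.

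The count of genes higher at d20 (1271) was 642 with a minimum of 2000 detected genes per cell and 2474 with 6000, 251 with a pseudocount of 10 CPM, 2524 with the log2 of the mean CPM, 2500 with UMIs summed first, 665 with size factors of DESeq2, 823 with a floor of 3, 135 for differences of over 2 and 1908 with d20 cells numbered 1 to 24. The count of genes lower at d20 (879) was 576 with no filter on cells, 156 with a pseudocount of 10 CPM, 1872 with the log2 of the mean CPM, 1987 with UMIs summed first, 543 with a floor of 3, 141 for differences of over 2, 1357 with d20 cells numbered 25 to 48 and 1613 with those numbered 49 to 72. A floor of 3 and a difference of over 2 leave fewer genes by construction, and for the others the cause was not tested. The counts under the alternatives not named here were within 1.5 times the reported ones.

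Called values that reversed were as follows, and the cause was not tested. With a minimum of 2000 genes *Timp1* stood at -0.017. With 6000 genes (12 d20 and 11 d12c cells) *Lamb1* stood at -0.097, *Thy1* at -0.36, *Dab2* at -0.42, *Grn* at 0.32, *S100a6* at 1.19, *Ccnd1* at 0.61, *Cnn2* at 0.47 and *Nnat* at 0.13. With the log2 of the mean CPM the median of neural markers was -0.36 and *S100a6* stood at 0.72. With UMIs summed first the median of neural markers was -0.24, and *S100a6* stood at 0.84, *Stmn2* at 0.20 and *Nnat* at 0.21. That median was -0.049 with no floor and -1.46 with a floor of 3. With d12c cells numbered 49 to 72, *Smad7* stood at 0.75. With all d12c cells, 1 to 96, the median of neural markers was -0.071, and *Gata4* stood at 0.86, *Thy1* at -0.45, *Ihh* at 0.12, *Rbp4* at -0.84, *Timp1* at -0.11 and *Nes* at -0.071. With d20 cells numbered 49 to 72, *Dkk1* stood at -0.56 and *Dot1l* at 0.23.

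With 6000 genes 82 of the 123 genes stayed past 1 in the same direction. Besides those that reversed, the others were *Sox17* (0.26), *Tcf7l2* (0.098), *Lamc1* (0.19), *Ihh* (-0.76), *Rab5a* (-0.94), *Fst* (0.16), *Timp2* (-0.97), *Actn1* (-0.25), *L1td1* (0.56), *Stmn2* (-0.90), *Nes* (0.68), *Fen1* (0.72), *Axin2* (0.82), *Znrf3* (0.90), *Smad7* (-0.098), *Skil* (-0.93), *Id3* (-0.33), *Kit* (0.52), *Igf2* (-0.97), *Igfbp5* (-0.92), *Igf2bp1* (0.64), *H19* (-0.38), *Rian* (0.48), *Mt2* (-0.84), *Dot1l* (-0.010), *Ifitm2* (-0.74), *Ier3* (-0.72), *Hspa1a* (-0.47), *Actg1* (-0.79), *Sox4* (-0.69), *Igfbp2* (-0.82), *Igfbp7* (-0.93) and *Slc3a2* (-0.52). Of 127 named genes within 1, 36 passed it with 6000 genes, 5 of them in the other direction: *Foxa2* (-1.76), *Esx1* (2.14), *Elf3* (-1.20), *Gbx2* (-1.22), *Rn45s* (-1.52), *Npc1* (-2.10), *Ctsa* (1.14), *Ctsz* (1.24), *Col6a1* (1.39), *Flna* (1.54), *Lin28b* (1.63), *Eomes* (-1.10), *Cdx2* (-1.42), *Cd68* (1.40), *Ccnb2* (1.51), *Bax* (1.17), *Cdkn1a* (2.06), *Crem* (1.53), *Tgfb2* (1.27), *Msx2* (-1.35), *Spry1* (-1.20), *Fgf3* (1.51), *Dusp6* (1.39), *Kitl* (2.45), *Hsp90b1* (1.34), *Mvd* (-1.19), *Nsdhl* (-1.06), *Fdps* (-1.10), *Ezh2* (1.13), *Hmgn3* (1.49), *Stat2* (1.56), *Tap1* (1.71), *Jun* (-1.12), *Xist* (1.19), *Rnf43* (-1.49) and *Nkd1* (2.14).

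With 1 sample a group, the spread between cultures or batches is unknown, and no difference can be set against it. Day, colony picking and sequencing batch cannot be told apart. At these depths many genes had a UMI in a part of the cells only, so differences of such genes rest on how many cells held one. Intervals cover counting error only.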
